A study of Sus scrofa with 6 samples.

Results

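The genes described here encode the mitochondrial respiratory chain and the ATP synthase of the pig (Sus scrofa), from both the nuclear and the mitochondrial genome. They were chosen by symbol alone, without use of their measured levels, although earlier results of these data were known at that time. Nuclear genes were taken when the symbol began with NDUFA, NDUFB, NDUFC, NDUFS, NDUFV, UQCR, COX4I, COX5, COX6, COX7, COX8 or ATP5, or was SDHA to SDHD or CYC1, and the mitochondrially encoded genes were taken by name. This gave 63 of the 25322 gene IDs in the count tables, 50 of them nuclear and 13 mitochondrially encoded. No ID with a symbol beginning with NDUFC or COX6, and none named CYC1, was matched, so those subunits were not analysed here. By function the nuclear genes comprised 20 subunits of complex I, 6 assembly factors of complex I, 4 subunits of complex II, 6 of complex III, 8 genes placed with complex IV and 6 placed with complex V.

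The respiratory chain sits in the inner mitochondrial membrane. Complexes I and II pass electrons from NADH and succinate to ubiquinone, complex III passes them on to cytochrome c, and complex IV passes them to oxygen. Complexes I, III and IV pump protons, and complex V, the ATP synthase, uses the returning protons to make ATP. Every complex except complex II mixes subunits made from nuclear genes with core subunits made from mitochondrial DNA, and skeletal muscle, which contracts on ATP, and liver are tissues rich in mitochondria, whereas white fat holds few.

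Messenger RNA was sequenced in skeletal muscle, liver and fat of Korean native pigs and of Berkshire pigs, with 1 library for each breed and tissue and 6 libraries in all. Each library was made with an Illumina TruSeq RNA kit from 1 µg of total RNA of frozen tissue. The labels name a breed and a tissue and no treatment. They leave unsaid whether the libraries of 1 breed share an animal, so p-values here reflect how these libraries vary and may not carry over to other animals. Levels are in CPM, a count as a share of the counts of its library, scaled with TMM factors, which set the libraries so that the typical gene does not move, and every tissue comparison below is relative to that typical gene.

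The libraries held between 5897407 and 7912093 counts on genes, so 1 count was a small fraction of a CPM and a count of 0 in a library allowed a level of up to 0.294 to 0.692 CPM, the value of 3 counts there. TMM factors were 0.736 and 0.915 for Korean native and Berkshire muscle, 0.764 and 0.790 for the liver libraries of those breeds and 1.52 and 1.62 for their fat. The labelled tissues matched their marker genes: all 8 tested skeletal muscle markers were higher in muscle than in liver and fat, all 9 tested hepatocyte markers were higher in liver than in muscle and fat, and all 5 tested adipocyte markers were lower in muscle than in fat. The 3 genes named as marks of the chain were present in every library. UQCRFS1, the Rieske iron-sulfur protein of complex III, COX5A, a nuclear subunit of complex IV, and COX1, the mitochondrially encoded catalytic subunit of complex IV, had lowest library levels of 115, 44.2 and 17642 CPM. Because whole tissue was sequenced, fewer cells of a type and less RNA per cell cannot be told apart in any comparison of tissues or breeds.

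Counts on the 2 genomes were spread differently over the tissues. Mitochondrially encoded genes took 17.6% and 17.4% of the counts on genes in Korean native and Berkshire muscle, 17.5% and 13.1% in Korean native and Berkshire liver, and 13.6% and 12.9% in Korean native and Berkshire fat. The share of Berkshire liver lay between those of the fat libraries. The 50 nuclear genes together took 0.683% and 0.435% in Korean native and Berkshire muscle, 0.291% and 0.255% in Korean native and Berkshire liver, and 0.445% and 0.524% in Korean native and Berkshire fat. Liver thus gave the lowest nuclear shares of the 3 tissues in both breeds. The widest 95% Wilson interval of these shares ran from 17.55% to 17.62%, for mitochondrially encoded genes in Korean native muscle, and covers counting error only. A ratio of mitochondrially encoded to nuclear counts needs no scaling between libraries. It was 25.7 in Korean native muscle and 40.0 in Berkshire muscle, 60.3 in Korean native liver and 51.5 in Berkshire liver, and 30.5 in Korean native fat and 24.7 in Berkshire fat. Both liver ratios were above all others, while the muscle and fat ratios overlapped.

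**Figure D1:**
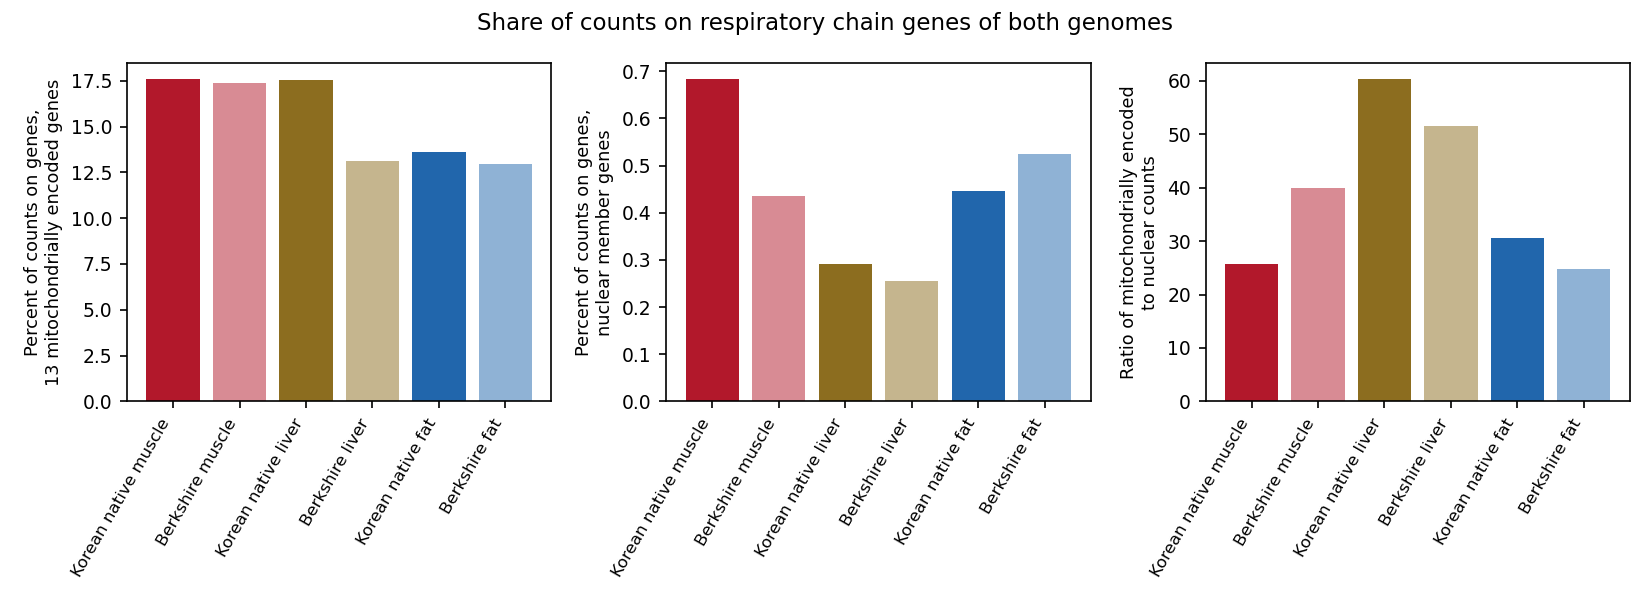
Bars give, for each of the 6 libraries, the percent of counts on genes that fell on the 13 mitochondrially encoded genes (left), the percent that fell on the 50 nuclear genes (middle) and the ratio of the first to the second (right), each axis starting at 0. Korean native liver has the highest ratio, 60.3, and Berkshire fat the lowest, 24.7, with 1 library per bar and no replicate error.

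The first comparison asked how the chain differed between skeletal muscle and the other tissues. Of the 62 members that passed the filter on low counts, 21 were higher in muscle than in fat and 1 was lower, at a Benjamini-Hochberg adjusted p under 0.05 in the 2-sided edgeR quasi-likelihood test over all genes. Among all 13810 tested genes, 9.95% were higher and 6.43% were lower in this comparison. Against liver, 20 members were higher in muscle and 1 was lower, where 17.4% of all tested genes were higher and 18.6% lower. The gene lower in muscle in both comparisons was COX8A. All 20 members higher in muscle than in liver were nuclear, whereas 3 of the 21 higher in muscle than in fat, ND1, ND3 and COX2, were mitochondrially encoded. The comparisons share the muscle libraries, and 12 members were called higher in both. DESeq2 called 32 members higher in muscle than in fat, 10 of them mitochondrially encoded, and 22 higher in muscle than in liver, where it called 11.3% and 17.5% of all tested genes higher.

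With all libraries the medians of the genomes were close in muscle over fat and lay apart in muscle over liver, a difference that was not tested. The median log2 fold of the 49 tested nuclear members was 1.21 in muscle over fat and 0.93 in muscle over liver, beside medians of -0.05 and 0.01 for all tested genes. The median of the 13 mitochondrially encoded members was 1.41 in muscle over fat and 0.15 in muscle over liver. Single libraries moved this pattern. Without Korean native muscle, the nuclear and mitochondrially encoded medians less that of all genes were 0.63 and 1.52 over fat and 0.45 and 0.19 over liver. Without Berkshire muscle they were 1.74 and 1.48 over fat and 1.34 and 0.19 over liver. Over fat they were 0.82 and 1.35 without Korean native fat, and 1.56 and 1.56 without Berkshire fat. Without any test, both muscle libraries lay above both fat libraries for 40 of the 50 nuclear genes and all 13 mitochondrially encoded genes, and this held for 30.6% of all tested genes. Both muscle libraries lay above both liver libraries for 32 of the 50 nuclear genes and for 0 of the 13 mitochondrially encoded genes, where 34.2% of all tested genes did so. In muscle over liver 0 of the 13 mitochondrially encoded members had an unadjusted edgeR p under 0.05. This held for 27 of the 49 nuclear members and for 6402 of all 13810 tested genes. DESeq2 called 0 of the 13 as well.

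The calls against fat depend on the scaling. With total counts in place of TMM factors, the median of all genes in muscle over fat moved to -0.98, and 3 members (NDUFB1, NDUFB5 and NDUFS1) were higher and 4 (COX7A2, COX7A2L, NDUFAF3 and COX8A) lower in muscle than in fat. Of all tested genes, 5.54% were higher and 38.1% lower on that scale, so the 4 are far under the share of all genes. The log2 fold over fat was above 0 for 45 of the 49 nuclear and all 13 mitochondrially encoded members with TMM factors, and for 30 nuclear and 11 mitochondrially encoded members with total counts. The nuclear median less that of all genes was 1.26, a distance that a change of scaling leaves nearly as it is by construction. Single libraries also decide the count of called members. Leaving out a library leaves its tissue with a lone sample, which is then assumed to vary like the others. Calls of all genes changed in such fits too. Counts of called members there, also those given below, thus do not show that members were called more or less often than other genes. In muscle over liver the nuclear median less that of all genes was 0.45 with Korean native muscle left out. It rose to 1.34 when Berkshire muscle was dropped instead. Dropping Korean native liver gave 0.84, and dropping Berkshire liver gave 0.98.

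**Figure D2:**
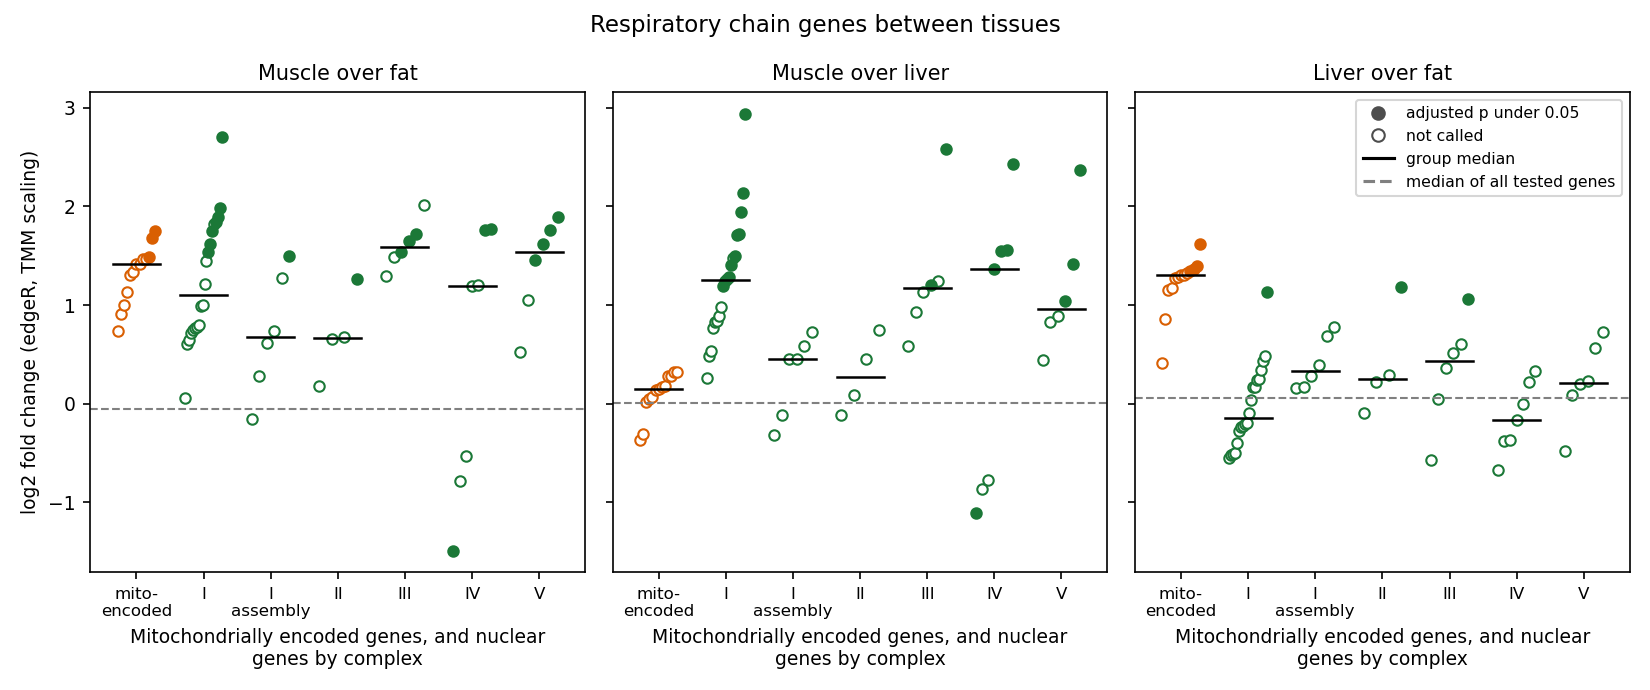
Each point is 1 of the 62 tested members, with its log2 fold change from edgeR on the vertical axis, in muscle over fat (left), muscle over liver (middle) and liver over fat (right), and with members grouped as mitochondrially encoded or by nuclear complex. Filled points passed an adjusted p under 0.05, black bars are group medians and the dashed line is the median of all tested genes. The mitochondrially encoded genes sit above the dashed line in both comparisons with fat and near it in muscle over liver, while most nuclear genes sit above it in both comparisons with muscle.

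Complex I, the NADH dehydrogenase, held the largest single fold in both muscle comparisons. Of its 20 nuclear subunits, 7 were higher in muscle than in fat and 11 were higher in muscle than in liver. NDUFB1, an accessory subunit of the membrane arm, had 60.9 CPM in Korean native muscle and 22.7 CPM in Berkshire muscle, 5.47 and 4.80 CPM in Korean native and Berkshire liver, and 5.13 and 6.56 CPM in Korean native and Berkshire fat. Korean native muscle was the highest library and Berkshire muscle the next, and liver and fat overlapped. NDUFB1 was higher in muscle than in fat (log2 fold 2.71, SE 0.48, adjusted p = 0.0127) and than in liver (log2 fold 2.94, SE 0.50, adjusted p = 0.0042). NDUFA11, an accessory subunit also in the membrane arm, had 76.6 and 36.6 CPM in Korean native and Berkshire muscle, 10.8 and 13.8 CPM in the liver libraries of the same breeds, and 19.2 and 16.6 CPM in their fat. Both muscle libraries stood above the other 4, and the gene was called against fat (log2 fold 1.61, adjusted p = 0.0358) and against liver (log2 fold 2.13, adjusted p = 0.00742).

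NDUFS1, the core iron-sulfur subunit of the arm that receives electrons from NADH, had 339 and 180.5 CPM in Korean native and Berkshire muscle, 158 and 138 CPM in the liver libraries of the same breeds, and 71.3 and 63.4 CPM in their fat. Its libraries were ordered muscle, liver, fat without overlap between muscle and fat or between liver and fat. NDUFS1 was higher in muscle than in fat (log2 fold 1.89, SE 0.35, adjusted p = 0.0142) and in liver than in fat (log2 fold 1.13, SE 0.34, adjusted p = 0.0449), while muscle over liver missed the threshold (log2 fold 0.76, adjusted p = 0.122). NDUFV1, another core subunit, the one that binds NADH, had 130.1 and 69.2 CPM in Korean native and Berkshire muscle, 56.0 and 43.2 CPM in the liver libraries of the same breeds, and 50.0 and 60.7 CPM in their fat. NDUFV1 passed neither muscle comparison, although both muscle libraries were its highest.

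Other accessory subunits followed muscle in both comparisons. NDUFB5, NDUFB6, NDUFB7 and NDUFS6 were each called against both tissues, with log2 folds between 1.53 for NDUFS6 and 1.98 for NDUFB7 over fat and between 1.29 for NDUFS6 and 1.71 for NDUFB6 over liver. NDUFB6, for example, had 75.7 and 51.1 CPM in Korean native and Berkshire muscle, 20.5 and 17.6 CPM in the liver libraries of the same breeds, and 19.1 and 17.8 CPM in their fat. NDUFA8, NDUFAB1, NDUFB8 and NDUFS4 were called against liver and not against fat. NDUFAB1 is the mitochondrial acyl carrier protein, which serves fatty acid synthesis as well as complex I, and had 136 CPM in Korean native muscle and 78.7 CPM in Berkshire muscle, 48.7 and 43.2 CPM in Korean native and Berkshire liver, and 57.6 and 62.7 CPM in Korean native and Berkshire fat.

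The complex I genes that drew the most counts did not all follow. NDUFB10, an accessory subunit, had 1062 and 519.8 CPM in Korean native and Berkshire muscle, 409 and 423 CPM in the liver libraries of the same breeds, and 443 and 561 CPM in their fat. Berkshire muscle lay between the fat libraries, and no tissue comparison was called for NDUFB10. In the RefSeq annotation of Sscrofa11.1 this gene lies beside RPS2 and RPL3L, and with the strand setting and counting mode not given in the sources used here its level is uncertain. NDUFB9, an accessory subunit, had 352 CPM in Korean native muscle and 83.3 CPM in Berkshire muscle, 65.3 and 66.6 CPM in Korean native and Berkshire liver, and 58.6 and 48.1 CPM in Korean native and Berkshire fat. The Korean native muscle library alone stood far above the others, and neither muscle comparison was called for NDUFB9 (log2 fold 1.82, adjusted p = 0.0619 over fat and log2 fold 1.47, adjusted p = 0.0727 over liver).

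**Figure D3:**
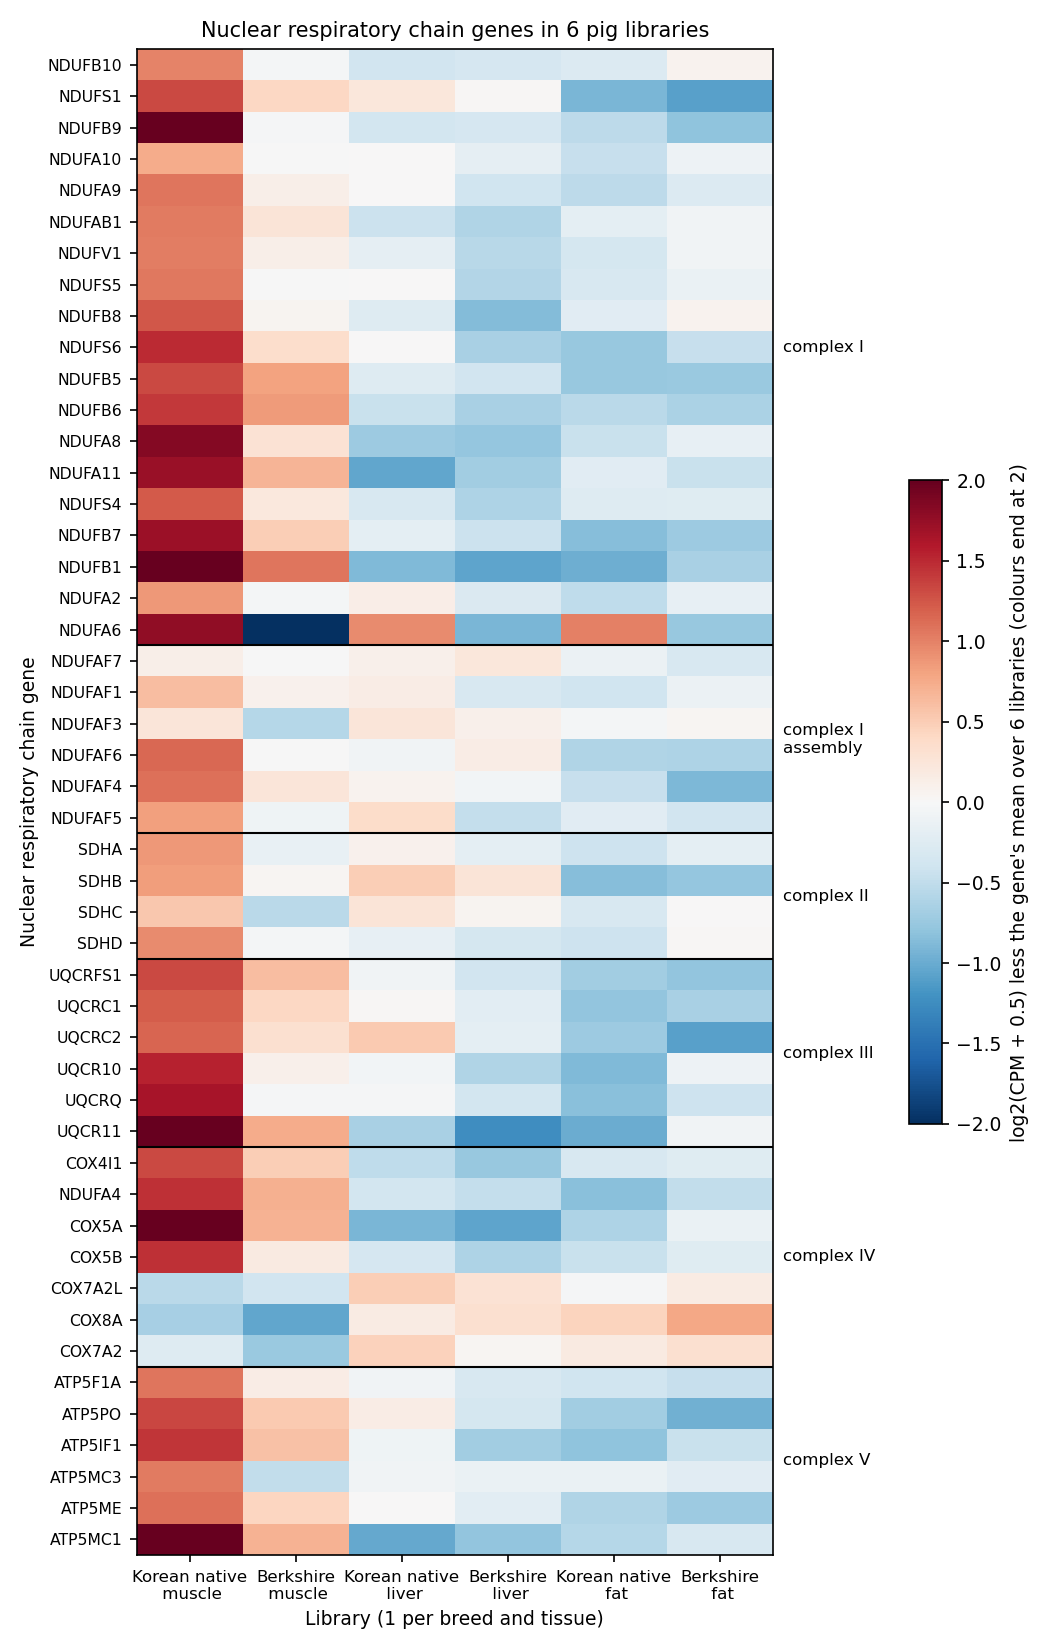
Rows are 48 of the 49 tested nuclear members, ordered by complex and within it by mean level, and columns are the 6 libraries. Colour gives log2(CPM + 0.5) less the mean of that gene over the 6 libraries, with red above and blue below the mean and colours ending at 2 in either direction. Korean native muscle is red for nearly every gene except COX7A2L, COX8A and COX7A2, and Berkshire muscle is paler; NDUFA6 is dark blue in Berkshire muscle.

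The 6 assembly factors of complex I, which build the enzyme and are not part of it, had 1 call in muscle over fat, too few genes to set against the share of all genes. It was NDUFAF4, higher in muscle than in fat (log2 fold 1.50, adjusted p = 0.0477), and in muscle over liver 0 were called and 0 had an unadjusted edgeR p under 0.05. NDUFAF4 had 11.8 and 6.22 CPM in Korean native and Berkshire muscle, 5.47 and 5.00 CPM in the liver libraries of the same breeds, and 3.65 and 2.55 CPM in their fat. The median log2 fold of the assembly factors was 0.68 in muscle over fat and 0.46 in muscle over liver, beside 1.11 and 1.25 for the 20 subunits. The difference between assembly factors and subunits was not tested.

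Complex II, succinate dehydrogenase, is also an enzyme of the tricarboxylic acid cycle and is wholly nuclear encoded. SDHB, its iron-sulfur subunit, had 245 CPM in Korean native muscle and 139.8 CPM in Berkshire muscle, 191 and 164 CPM in Korean native and Berkshire liver, and 75.7 and 79.3 CPM in Korean native and Berkshire fat. The muscle and liver libraries of SDHB overlapped and all of them lay above both fat libraries, and it was higher than in fat both in muscle (log2 fold 1.26, SE 0.35, adjusted p = 0.0494) and in liver (log2 fold 1.18, SE 0.34, adjusted p = 0.0404). The flavoprotein gene SDHA had 294 and 145 CPM in Korean native and Berkshire muscle, 169.7 and 140.2 CPM in the liver libraries of the same breeds, and 121 and 140.1 CPM in their fat. Its Berkshire muscle library lay within the range of liver and fat, and neither SDHA nor the membrane anchor genes SDHC and SDHD were called in any tissue comparison. SDHC had 145 CPM in Korean native muscle and 69.0 CPM in Berkshire muscle, 120.1 and 104 CPM in Korean native and Berkshire liver, and 80.0 and 100.1 CPM in Korean native and Berkshire fat, with Berkshire muscle the lowest library of all.

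Complex III, the cytochrome bc1 complex, had 3 of its 6 nuclear genes called in muscle over fat and 2 in muscle over liver. UQCRFS1 had 495 and 306 CPM in Korean native and Berkshire muscle, 189 and 153 CPM in the liver libraries of the same breeds, and 122 and 115 CPM in their fat. The libraries fell in the order muscle, liver, fat with no overlap, and UQCRFS1 was higher in muscle than in fat (log2 fold 1.72, SE 0.34, adjusted p = 0.0176) and than in liver (log2 fold 1.21, SE 0.33, adjusted p = 0.0282). The core protein genes UQCRC1 and UQCRC2 were called against fat and not against liver. UQCRC2 had 251 CPM in Korean native muscle and 138 CPM in Berkshire muscle, 159 and 96.8 CPM in Korean native and Berkshire liver, and 67.1 and 52.2 CPM in Korean native and Berkshire fat, and it was higher in liver than in fat as well (log2 fold 1.06, adjusted p = 0.0404). UQCRC1 had 333 and 191 CPM in Korean native and Berkshire muscle, 145 and 124 CPM in the liver libraries of the same breeds, and 83.1 and 91.6 CPM in their fat.

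The small complex III subunits had wide gaps between the muscle libraries. UQCR11 had 70.4 CPM in Korean native muscle and 25.1 CPM in Berkshire muscle, 9.28 and 6.00 CPM in Korean native and Berkshire liver, and 7.20 and 14.1 CPM in Korean native and Berkshire fat, and was called in muscle over liver (log2 fold 2.58, SE 0.59, adjusted p = 0.014) while muscle over fat missed the threshold (log2 fold 2.01, adjusted p = 0.0579). UQCR10 and UQCRQ, at log2 folds of 1.30 and 1.49 in muscle over fat, were called in neither comparison. Both had Berkshire muscle far closer to the other tissues than Korean native muscle was. UQCRQ, for example, had 104 and 32.0 CPM in Korean native and Berkshire muscle, 32.1 and 25.2 CPM in the liver libraries of the same breeds, and 18.1 and 24.5 CPM in their fat.

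Complex IV, cytochrome c oxidase, split by gene. COX5A had 374 CPM in Korean native muscle and 150.5 CPM in Berkshire muscle, 48.9 and 44.2 CPM in Korean native and Berkshire liver, and 60.4 and 84.8 CPM in Korean native and Berkshire fat, and was called against fat (log2 fold 1.76, SE 0.47, adjusted p = 0.0469) and against liver (log2 fold 2.43, SE 0.48, adjusted p = 0.00776). NDUFA4, named for complex I but known as a subunit of complex IV, had 319 and 188 CPM in Korean native and Berkshire muscle, 89.2 and 82.2 CPM in the liver libraries of the same breeds, and 64.0 and 81.6 CPM in their fat and was also called in both comparisons (log2 fold 1.77, adjusted p = 0.0227 over fat and log2 fold 1.54, adjusted p = 0.0166 over liver). The nuclear subunit genes COX4I1 and COX5B were called against liver only, at log2 folds of 1.56 and 1.36. COX4I1 had 439 and 248 CPM in Korean native and Berkshire muscle, 124 and 104 CPM in the liver libraries of the same breeds, and 141 and 149 CPM in their fat. Muscle was highest in both breeds, and the fat libraries were above the liver libraries.

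COX8A went the other way. This gene encodes the form of subunit VIII found in most tissues, while a separate gene supplies a form restricted to heart and skeletal muscle in several mammals. COX8A had 16.8 CPM in Korean native muscle and 12.8 CPM in Berkshire muscle, 30.3 and 33.6 CPM in Korean native and Berkshire liver, and 36.8 and 46.6 CPM in Korean native and Berkshire fat. Both muscle libraries lay below the other 4, and COX8A was lower in muscle than in fat (log2 fold -1.49, SE 0.33, adjusted p = 0.0259) and than in liver (log2 fold -1.11, SE 0.33, adjusted p = 0.0367), also with total counts. Its call over fat was lost when Berkshire muscle or either fat library was left out, and its call over liver when Berkshire muscle or either liver library was left out. COX7A2 likewise encodes the more widely found form of subunit VIIa, and had 14.1 and 9.88 CPM in Korean native and Berkshire muscle, 23.5 and 17.4 CPM in the liver libraries of the same breeds, and 19.1 and 21.3 CPM in their fat. Its muscle libraries were the lowest, and COX7A2 passed neither comparison (log2 fold -0.78, adjusted p = 0.147 over fat and log2 fold -0.78, adjusted p = 0.113 over liver). COX7A2L, a relative that joins complexes III and IV into supercomplexes, had 43.4 and 48.9 CPM in Korean native and Berkshire muscle, 89.5 and 77.8 CPM in the liver libraries of the same breeds, and 62.2 and 71.5 CPM in their fat, again lowest in muscle and not called (log2 fold -0.53, adjusted p = 0.242 over fat and log2 fold -0.86, adjusted p = 0.0582 over liver).

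The partner isoforms of these genes, COX7A1 and the muscle form of COX8, matched no ID here, as did COX4I2, so those pairs were not compared. Both members were in the tables for NDUFA4 and NDUFA4L2, and for the c ring genes ATP5MC1 and ATP5MC3, which are described with complex V. NDUFA4L2, a paralog known from human cells as a target of hypoxia signalling, had 3 and 8 counts in Korean native and Berkshire muscle, 2 and 2 in Korean native and Berkshire liver, and 0 and 4 in Korean native and Berkshire fat. It is the member that failed the filter on low counts, and no fold is given for it.

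Complex V, the ATP synthase, had 4 of its 6 nuclear genes higher in muscle than in fat and 3 higher in muscle than in liver. ATP5MC1, a gene for the proton-carrying c ring, had 99.9 CPM in Korean native muscle and 39.9 CPM in Berkshire muscle, 11.8 and 14.0 CPM in Korean native and Berkshire liver, and 16.3 and 19.4 CPM in Korean native and Berkshire fat. Both muscle libraries were above the rest, and ATP5MC1 was called over fat (log2 fold 1.90, SE 0.46, adjusted p = 0.0347) and over liver (log2 fold 2.37, SE 0.48, adjusted p = 0.00843). ATP5MC3 encodes the same mature c subunit as ATP5MC1, and had 170.2 and 58.2 CPM in Korean native and Berkshire muscle, 78.5 and 75.0 CPM in the liver libraries of the same breeds, and 75.1 and 69.9 CPM in their fat. Berkshire muscle was the lowest library of ATP5MC3, which was called in neither comparison (log2 fold 0.52, adjusted p = 0.427 over fat and log2 fold 0.44, adjusted p = 0.472 over liver).

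ATP5F1A, the alpha subunit of the catalytic head, had 1055 CPM in Korean native muscle and 556 CPM in Berkshire muscle, 479 and 403 CPM in Korean native and Berkshire liver, and 381 and 364 CPM in Korean native and Berkshire fat. Both muscle libraries were highest for ATP5F1A, yet neither comparison was called (log2 fold 1.05, adjusted p = 0.0979 over fat and log2 fold 0.82, adjusted p = 0.128 over liver). ATP5PO, part of the stalk that holds the head still, had 382 and 217 CPM in Korean native and Berkshire muscle, 167 and 119 CPM in the liver libraries of the same breeds, and 93.5 and 77.5 CPM in their fat and was called in both (log2 fold 1.76, adjusted p = 0.0145 over fat and log2 fold 1.04, adjusted p = 0.0417 over liver). ATP5IF1 is no subunit but the inhibitor that stops the enzyme from running backwards, and it too was called in both (log2 fold 1.62, adjusted p = 0.0327 over fat and log2 fold 1.42, adjusted p = 0.0254 over liver). ATP5IF1 had 235 CPM in Korean native muscle and 131 CPM in Berkshire muscle, 82.0 and 53.4 CPM in Korean native and Berkshire liver, and 49.6 and 63.7 CPM in Korean native and Berkshire fat. ATP5ME, in the membrane part, was called over fat only (log2 fold 1.45, adjusted p = 0.0228).

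The 13 mitochondrially encoded genes are cut from long transcripts of both strands of the circular genome. On the TMM scale each of them was above both fat libraries in both muscle libraries and in both liver libraries. Both liver libraries lay above both fat libraries for all 13 of these genes and for 20 of the 50 nuclear genes, where this held for 37.3% of all tested genes. For ND1, a core subunit of the proton-pumping arm of complex I, the levels were 14821 CPM in Korean native muscle and 9059 CPM in Berkshire muscle, 12991 and 8565 CPM in Korean native and Berkshire liver, and 4543 and 2596 CPM in Korean native and Berkshire fat. ND1 was higher than in fat in muscle (log2 fold 1.75, SE 0.40, adjusted p = 0.0299) and in liver (log2 fold 1.62, SE 0.40, adjusted p = 0.0234), and muscle and liver overlapped. COX2, which takes electrons from cytochrome c, had 29840.2 and 19162 CPM in Korean native and Berkshire muscle, 24993 and 15427 CPM in the liver libraries of the same breeds, and 8980.2 and 6210.1 CPM in their fat and was called in the same 2 comparisons (log2 fold 1.68, adjusted p = 0.0374 in muscle over fat and log2 fold 1.39, adjusted p = 0.0438 in liver over fat).

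ND3 was the remaining mitochondrially encoded gene called in muscle over fat (log2 fold 1.49, adjusted p = 0.039), with 3209 CPM in Korean native muscle and 1925 CPM in Berkshire muscle, 2267 and 1763 CPM in Korean native and Berkshire liver, and 991 and 796 CPM in Korean native and Berkshire fat. The other 10 had log2 folds between 0.74 for ND4L and 1.47 for CYTB and ATP6, and adjusted p between 0.0525 for CYTB and 0.203 for ND5. COX1 had 53024 and 38632 CPM in Korean native and Berkshire muscle, 43268 and 32294 CPM in the liver libraries of the same breeds, and 17642 and 23425 CPM in their fat. Berkshire fat was the higher fat library for COX1, and COX1 was not called in muscle over fat (log2 fold 1.13, adjusted p = 0.14). CYTB, the only complex III subunit made in mitochondria, had 21697 CPM in Korean native muscle and 17937 CPM in Berkshire muscle, 19192 and 16076 CPM in Korean native and Berkshire liver, and 7912 and 6409 CPM in Korean native and Berkshire fat. COX3 had 35150.5 and 23879.5 CPM in Korean native and Berkshire muscle, 28870.2 and 22663 CPM in the liver libraries of the same breeds, and 12230.1 and 10722 CPM in their fat, with muscle and liver overlapping as for CYTB. The proton channel subunit ATP6 had 30954 CPM in Korean native muscle and 23717 CPM in Berkshire muscle, 31002 and 19170.4 CPM in Korean native and Berkshire liver, and 11472 and 8338 CPM in Korean native and Berkshire fat.

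Per length the levels of the mitochondrially encoded genes spanned a mean of 2135 CPM per kb for ND4L to 30507 CPM per kb for ATP6 over the 6 libraries. With gene lengths from RefSeq for Sscrofa11.1, the mean over the 2 muscle libraries was 40140.2 CPM per kb for ATP6 (SD 7514), 37647 for COX3 (SD 10166), 35612 for COX2 (SD 10975) and 29662 for COX1 (SD 6587). Both muscle libraries gave this order, with 45453, 44835, 43372 and 34320 CPM per kb in Korean native muscle and 34827, 30459, 27852 and 25004 CPM per kb in Berkshire muscle, and Korean native muscle was the higher of the pair for each of the 4. The gaps between neighbours in the order were smaller than these SDs, which hold the difference that the genes share between libraries. CYTB at 17383 CPM per kb (SD 2332) and ND4 at 14518 (SD 3639) followed in muscle, and ND4L was lowest at 2675 CPM per kb (SD 582). In fat ATP6 averaged 14544 CPM per kb (SD 3254), COX3 14638 (SD 1360) and COX1 13290.3 (SD 2647). ATP8 and ATP6 overlap by 43 bases, ND4L and ND4 by 7 bases, and ND5 and ND6, which lie on opposite strands, by 17 bases. Reads in these overlaps may be split or dropped by the counting, so the levels of ATP8, ND4L and ND6 are the least certain.

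**Figure D4:**
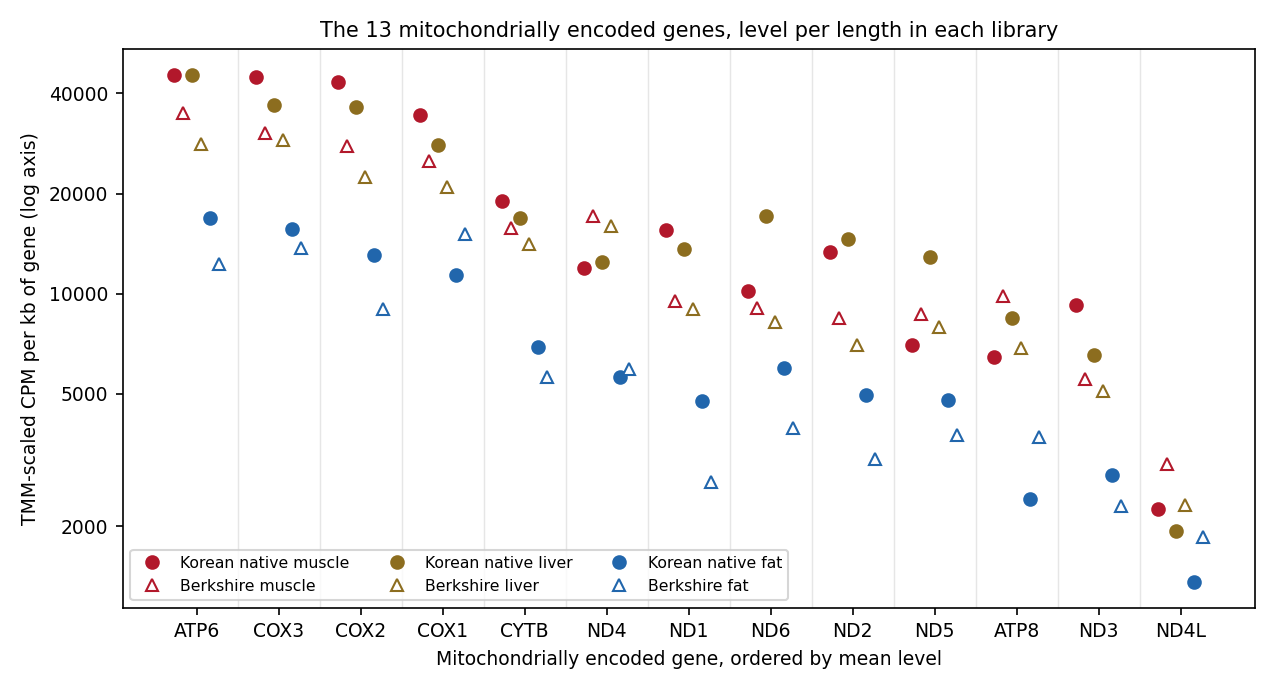
Points give the TMM-scaled CPM per kb of each of the 13 mitochondrially encoded genes in each of the 6 libraries on a log axis, with filled circles for Korean native and open triangles for Berkshire pigs and with genes ordered by mean level. ATP6, COX3, COX2 and COX1 are highest and ND4L lowest, fat lies below muscle and liver for each gene on this scale, and the triangles of ND4 and ND4L lie above the circles of the same tissue.

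Within the mitochondrially encoded pool of 13 genes, ND4, ATP8, ND2 and ATP6 had shares that did not overlap between the breeds. These shares divide the counts of a gene by those of all 13, so they need no scaling between libraries. ND4 made up 6.88% to 8.65% of the 13 genes in the 3 Korean native libraries, against 10.2% to 13.3% in the 3 Berkshire libraries. ATP8 also had lower shares in Korean native libraries, at 0.551% to 0.751% against 0.841% to 1.06% in Berkshire libraries. ND2 had higher shares in Korean native libraries, at 5.78% to 6.60% against 4.15% to 4.64% in Berkshire libraries. ATP6 had 12.8% to 13.5% in Korean native libraries against 10.4% to 12.5% in Berkshire libraries. ATP8 and ATP6 overlap by 43 bases and went opposite ways. How reads in the overlap were assigned may enter both shares, which was not tested, and the level of ATP8 is among the least certain. ND4, ATP8, ND2 and ATP6 were picked from the 13 because their 3 Korean native and 3 Berkshire libraries did not overlap. How many of all tested genes would do so was not counted, and shares of 1 pool depend on each other. Moreover, 3 libraries against 3 cannot reach an exact 2-sided permutation p below 0.1, and no test was made. ND4L had 0.250% to 0.451% in Korean native libraries and 0.414% to 0.686% in Berkshire libraries, which overlap. COX1 made up 29.2% in Berkshire fat and 18.8% to 22.2% in the other 5 libraries. ND5 ranged from 5.33% in Korean native muscle to 10.2% in Korean native liver.

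In CPM, ND4 had 16459 CPM in Korean native muscle and 23551 CPM in Berkshire muscle, 17124 and 22083 CPM in Korean native and Berkshire liver, and 7738 and 8197 CPM in Korean native and Berkshire fat. It was lower in the Korean native than in the Berkshire library of every tissue, by log2 ratios of -0.52, -0.37 and -0.08 in muscle, liver and fat. ND4L had 672 and 917 CPM in Korean native and Berkshire muscle, 574 and 687 CPM in the liver libraries of the same breeds, and 403 and 550.3 CPM in their fat, likewise lower in each Korean native library. Most other mitochondrially encoded genes ran the other way, as ND2 with 13934 CPM in Korean native muscle and 8822 CPM in Berkshire muscle, 15166 and 7304 CPM in Korean native and Berkshire liver, and 5171 and 3328 CPM in Korean native and Berkshire fat. ND5 had 12759 and 15835 CPM in Korean native and Berkshire muscle, 23484 and 14457 CPM in the liver libraries of the same breeds, and 8712 and 6856 CPM in their fat, with Korean native liver the highest library. ND6, the only one of the 13 proteins encoded on the light strand, had 5370.4 CPM in Korean native muscle and 4800.1 CPM in Berkshire muscle, 9036 and 4345 CPM in Korean native and Berkshire liver, and 3164 and 2079 CPM in Korean native and Berkshire fat, and Korean native liver was again highest. ATP8 had 1317 and 2014 CPM in Korean native and Berkshire muscle, 1724 and 1397 CPM in the liver libraries of the same breeds, and 494 and 756 CPM in their fat.

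The next comparison set liver against fat. Of the 62 tested members 7 were higher in liver and 0 were lower, where 15.2% of all tested genes were higher and 13.5% lower. The 7 were the mitochondrially encoded ND1, ND2, COX2 and ATP8, with log2 folds from 1.35 to 1.62, and the nuclear NDUFS1, SDHB and UQCRC2, with log2 folds from 1.06 to 1.18. The median log2 fold of the mitochondrially encoded genes was 1.30 and that of the nuclear genes 0.17, beside 0.06 for all tested genes. DESeq2 called 14 members higher, 11 of them mitochondrially encoded, and 0 lower, where it called 14.9% of all tested genes higher. The edgeR test had 14 of the 62 members at an unadjusted p under 0.05, all of them higher in liver. In either direction 5590 of all 13810 tested genes had such a p. Among the nuclear genes left uncalled was ATP5F1A (log2 fold 0.23, adjusted p = 0.688).

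These liver calls rest on the scaling. With total counts the median of all genes moved to -0.94 and the nuclear members reversed with it, to a median of -0.84, and 0 members were called higher and 17 lower in liver, COX5A, COX4I1 and NDUFB10 among them, where 8.39% of all tested genes were higher and 42% lower. On that scale the mitochondrially encoded genes kept a positive median of 0.29 with 0 called. Without either fat library or without Korean native liver 0 members were called higher in liver over fat, without Berkshire liver 1, and without Berkshire muscle 4.

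The breeds were compared over all 3 tissues by the breed term of the same model. No member passed: 0 of 62 were higher and 0 lower in Korean native pigs by edgeR, where 0.029% of all tested genes were higher and 0.0797% lower. DESeq2 called 1 member, NDUFA6, among 94 genes in all (log2 fold 3.05, adjusted p = 0.0238), and edgeR gave NDUFA6 a larger p (log2 fold 2.90, SE 0.61, adjusted p = 0.314). At an unadjusted edgeR p under 0.05, 3 of the 62 members passed, beside 1103 of all 13810 genes. The log2 folds themselves leaned one way, above 0 for 47 of the 49 nuclear and 10 of the 13 mitochondrially encoded members, with medians of 0.34 and 0.37 beside 0.02 for all genes. The nuclear median less that of all genes was 0.31 with all libraries and 0.03 without either muscle library, and it was 0.58 without either fat library. The mitochondrially encoded one was 0.34 with all libraries, 0.33 when Korean native muscle was left out and 0.32 when Berkshire muscle was.

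Within muscle nearly all nuclear members were higher in the Korean native library. With 1 library of each breed there is no test, and members were counted at 2-fold or more where 1 of the libraries being compared reached 5 CPM. In muscle 21 of 49 nuclear members and 0 of 13 mitochondrially encoded members were at least 2-fold higher in Korean native pigs and 0 were 2-fold lower. Of all 10142 genes at that level, 10.7% were at least 2-fold higher and 10.2% at least 2-fold lower. The log2 ratio was above 0 for 48 of the 49 nuclear members and for 52.2% of all genes, and COX7A2L was the exception at -0.17. The nuclear median was 0.92 and the mitochondrially encoded median 0.38, beside 0.05 for all genes. With total counts the median of all genes in muscle moved to -0.28, and 9 members were at least 2-fold higher, as were 4.99% of all genes at that level.

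All the complexes took part. The 21 comprised 11 complex I subunits, 1 assembly factor, 2 complex II, 3 complex III, 2 complex IV and 2 complex V genes, and the median log2 ratio ran from 0.76 for complex IV to 1.15 for complex III. NDUFB9 had 352 CPM in Korean native against 83.3 CPM in Berkshire muscle, a log2 ratio of 2.08. UQCRQ had 104 CPM in Korean native against 32.0 CPM in Berkshire muscle, a log2 ratio of 1.68. ATP5MC3 and NDUFA8 each had a log2 ratio of 1.54, and COX5A had 1.31. NDUFB5, at 0.52, and NDUFAF7, at 0.12, were among the least different.

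Other genes moved between the same muscle libraries. The summed level of 8 skeletal muscle markers was 154269 CPM in Korean native against 98446 CPM in Berkshire muscle, a ratio of 1.57, and that of the fast and slow fibre markers had ratios of 1.89 and 1.65. The summed level of 5 adipocyte markers was 172 CPM in Korean native against 434 CPM in Berkshire muscle, and that of 5 macrophage markers was 32.3 CPM in Korean native against 83.1 CPM in Berkshire muscle. The summed nuclear members had a ratio of 1.95 and the summed mitochondrially encoded members one of 1.26. The part of these markers in the breed difference was not tested.

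Few members reached 2-fold in liver and fat. In liver 2 members, ND2 and ND6, were at least 2-fold higher in the Korean native library and 0 lower, where 6.18% of all genes were 2-fold higher and 5.82% lower. The nuclear median there was 0.22, with no nuclear member at 2-fold, and the mitochondrially encoded median 0.42. Erythroid markers summed to 2130 CPM in Korean native against 247 CPM in Berkshire liver, and their part was not tested. In fat 1 member, NDUFA6, was at least 2-fold higher in the Korean native library and 0 lower, where 4.68% of all genes were 2-fold higher and 3.71% lower. The nuclear median in fat was -0.19 and 34 of 47 nuclear members were below 0, while the mitochondrially encoded median was 0.32. Between the same fat libraries the summed adipocyte markers had a Korean native over Berkshire ratio of 0.545 and the macrophage markers one of 2.05, and their part was not tested. The summed nuclear level had a Korean native over Berkshire ratio of 0.902 in fat and 1.18 in liver.

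**Figure D5:**
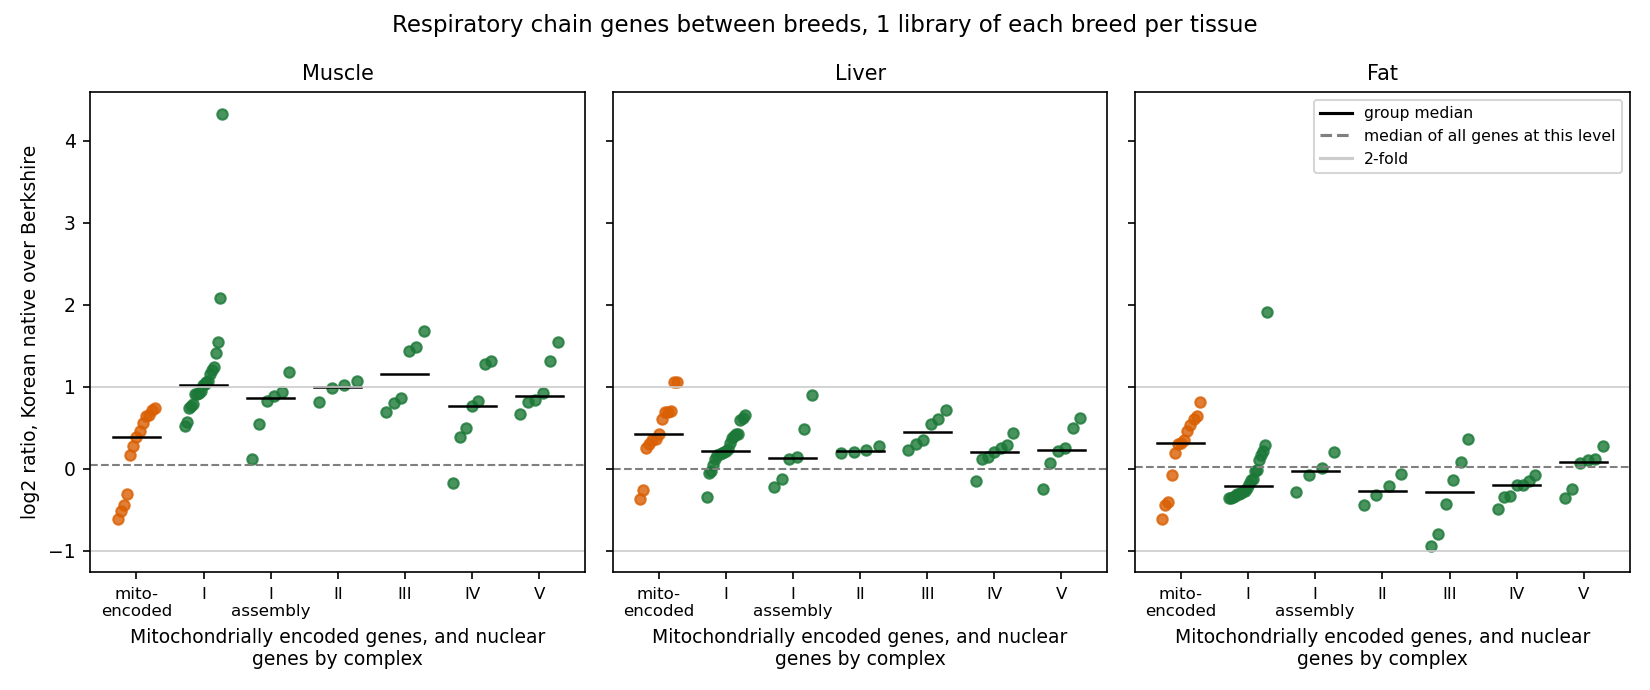
Each point is 1 member that reached 5 CPM in either library of a tissue, placed by its log2 ratio of Korean native over Berkshire CPM in muscle (left), liver (middle) and fat (right), with 1 library of each breed per tissue. Black bars are group medians, the dashed line is the median of all genes at that level and grey lines mark 2-fold. Nuclear members lie mostly above the dashed line in muscle and mostly below it in fat, and the highest point in muscle and in fat is NDUFA6.

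The difference between tissues was put to a test in edgeR with an interaction term, added after the data were seen, that sets the breed difference in muscle against that in liver and fat. It leaves 1 residual degree of freedom. By this test 0 members and 0 of all genes passed an adjusted p under 0.05, and the smallest adjusted p of a member was 0.502. Of the 49 nuclear members 14 had an unadjusted p under 0.05, as did 1299 of all 13810 genes and 0 of the 13 mitochondrially encoded members. The interaction log2 value was above 0 for 48 of the 49 nuclear members, 5 of the 13 mitochondrially encoded members and 6645 of all 13810 genes.

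NDUFA6, an accessory subunit of complex I, was the member with the widest gap between breeds in every tissue. It had 40 counts in Korean native against 1 count in Berkshire muscle, 30 in Korean native liver against 5 in Berkshire liver, and 53 in Korean native fat against 12 in Berkshire fat. The Korean native library was higher in each tissue. On the TMM scale the ratios were 50.4 in muscle (95% exact binomial interval 8.54 to 2040), 4.97 in liver (1.91 to 16.4) and 4.45 in fat (2.35 to 9.14), and these intervals cover counting error only. In CPM, NDUFA6 had 9.23 and 0.183 CPM in Korean native and Berkshire muscle, 4.97 and 1.00 CPM in the liver libraries of the same breeds, and 5.23 and 1.18 CPM in their fat, which leaves it under the 5 CPM minimum in liver. No tissue comparison was called for it.

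The genes around the chain were described from lists of its partners. Of all tested genes, 9.95% were higher and 6.43% lower in muscle than in fat, and 17.4% were higher and 18.6% lower in muscle than in liver. These shares apply to every list below. The lists are small, and their counts were not tested against the shares. Of 15 tested electron carriers and ubiquinone genes, 3 were higher and 1 lower in muscle than in fat, and 4 were higher and 3 lower in muscle than in liver. CYCS, cytochrome c itself, had 501 CPM in Korean native muscle and 232 CPM in Berkshire muscle, 63.3 and 84.2 CPM in Korean native and Berkshire liver, and 80.1 and 61.7 CPM in Korean native and Berkshire fat and was called in both comparisons (log2 fold 2.33, adjusted p = 0.0147 over fat and log2 fold 2.22, adjusted p = 0.00784 over liver). COQ9, needed to make ubiquinone, had 437 and 178 CPM in Korean native and Berkshire muscle, 67.3 and 56.4 CPM in the liver libraries of the same breeds, and 48.6 and 58.6 CPM in their fat, called in both as well. SQOR, which feeds electrons from sulfide to ubiquinone, was lower in muscle than in fat (log2 fold -1.87, adjusted p = 0.0131) and than in liver (log2 fold -1.86, adjusted p = 0.00567).

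The carriers that link the ATP synthase to the rest of the cell moved more widely. Of 8 tested genes for ATP and proton carriers, 3 were higher and 1 lower in muscle than in fat, and 6 were higher and 1 lower in muscle than in liver. SLC25A4, the ADP/ATP carrier typical of heart and muscle, had 1025 CPM in Korean native muscle and 481 CPM in Berkshire muscle, 217 and 157 CPM in Korean native and Berkshire liver, and 31.3 and 64.7 CPM in Korean native and Berkshire fat. SLC25A5, the carrier typical of other tissues, had 10.1 and 11.9 CPM in Korean native and Berkshire muscle, 44.1 and 37.8 CPM in the liver libraries of the same breeds, and 27.2 and 37.7 CPM in their fat, and its muscle libraries were the lowest. SLC25A4 was higher in muscle than in fat (log2 fold 3.90, adjusted p = 0.00687) and SLC25A5 lower (log2 fold -1.55, adjusted p = 0.0232). CKMT2, the mitochondrial creatine kinase of striated muscle, had 1515 CPM in Korean native muscle and 478 CPM in Berkshire muscle, 2.98 and 4.00 CPM in Korean native and Berkshire liver, and 0.690 and 1.27 CPM in Korean native and Berkshire fat and was called in both comparisons, at log2 folds of 9.83 over fat and 8.04 over liver.

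Of 16 tested genes of the tricarboxylic acid cycle, 6 were higher and 0 lower in muscle than in fat, and 6 were higher and 1 lower in muscle than in liver. IDH2 had 439 and 373 CPM in Korean native and Berkshire muscle, 116 and 98.2 CPM in the liver libraries of the same breeds, and 26.4 and 28.3 CPM in their fat and was called in all 3 tissue comparisons. SUCLG2 had 179 CPM in Korean native muscle and 140.0 CPM in Berkshire muscle, 573 and 567 CPM in Korean native and Berkshire liver, and 101 and 97.8 CPM in Korean native and Berkshire fat, and was lower in muscle than in liver (log2 fold -1.85, adjusted p = 0.00517). Of 14 tested assembly factors of complexes III and IV, 3 were higher and 0 lower in muscle than in fat, and 3 were higher and 2 lower in muscle than in liver. COX17, the copper chaperone of complex IV, was higher in muscle in both (log2 fold 1.48, adjusted p = 0.0231 over fat and log2 fold 1.72, adjusted p = 0.00607 over liver), while SCO1, another copper protein of complex IV assembly, was lower in muscle than in liver (log2 fold -1.48, adjusted p = 0.00964). Of 8 tested further assembly factors of complexes I, II and V, 1 was higher and 0 lower in muscle than in fat, and 1 higher and 2 lower in muscle than in liver. The 1 higher in each was ECSIT, and FOXRED1 had 13.4 and 11.7 CPM in Korean native and Berkshire muscle, 157 and 101 CPM in the liver libraries of the same breeds, and 10.5 and 17.4 CPM in their fat, lower in muscle than in liver (log2 fold -3.36, adjusted p = 0.00113).

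Of 14 tested genes that copy, transcribe and maintain mitochondrial DNA, 2 were higher and 0 lower in muscle than in fat, and 3 were higher and 1 lower in muscle than in liver. SLIRP, which stabilizes mitochondrial messenger RNA, had 16.6 CPM in Korean native muscle and 8.24 CPM in Berkshire muscle, 4.64 and 2.40 CPM in Korean native and Berkshire liver, and 2.56 and 3.13 CPM in Korean native and Berkshire fat and was called in both (log2 fold 2.02, adjusted p = 0.0298 over fat and log2 fold 1.79, adjusted p = 0.0242 over liver). Of 12 tested regulators of mitochondrial biogenesis, 3 were higher and 0 lower in muscle than in fat, and 2 were higher and 3 lower in muscle than in liver. PPARGC1A, the coactivator known for driving mitochondrial genes, had 26.1 and 30.0 CPM in Korean native and Berkshire muscle, 49.0 and 56.6 CPM in the liver libraries of the same breeds, and 0.197 and 0.196 CPM in their fat. The fat libraries held 2 counts each, and the ratio of summed levels was 144 in muscle over fat (95% exact binomial interval 55.6 to 532) and 267 in liver over fat (104 to 983), both covering counting error only. PPARGC1A was lower in muscle than in liver (log2 fold -0.91, adjusted p = 0.0451).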

How the data were processed

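RNA sequencing counts of 6 pig libraries were analysed. For each Ensembl gene ID the authors deposited an unnormalized count, and the submitters' processing notes name TopHat, HTSeq 0.5.3p3 and the Sscrofa10.2 build. Strand setting, counting mode and annotation release: not given in the sources used here. Entries that name no gene held 64.7% to 67.4% of a library and entered neither library sizes nor tests. Symbols came from a supplied table, which matched 46.6% of the 25322 gene IDs. The members and gene lists were chosen with earlier results of these data known.

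Tissue and breed entered as additive terms in a fit of the 6 libraries with edgeR 4.0.16 in R 4.3.3, with TMM factors, filterByExpr (13810 genes kept) and a 2-sided quasi-likelihood test, Benjamini-Hochberg adjusted over all tested genes and called under 0.05. This leaves 2 residual degrees of freedom, with a biological coefficient of variation of 29.5%. The fit gives no SE, so the printed one divides the absolute log2 fold by the root of F. Breeds have 1 library each per tissue, so ratios of CPM with a prior count of 2 were counted at 2-fold among genes with at least 5 CPM, with no test. Gene lengths came from the RefSeq table of Sscrofa11.1, used for lengths, overlaps and neighbours only. Intervals are 95% and cover counting error only.

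Library values were to be given for every mitochondrially encoded gene, for the 3 nuclear genes of most counts in each complex, for members with the largest called folds, for isoform pairs, for members 4-fold apart between breeds and for up to 4 called genes of each partner list; not every one is printed, and NDUFA8, NDUFAB1, NDUFAF4, NDUFB6, NDUFV1, UQCRQ, COX4I1 and FOXRED1 are among those added or kept for illustration. The values of 1 nuclear member are not reported here by name; it is kept in all counts and medians. Alternatives were DESeq2 1.42.0, other scalings, no filter, no breed term, other minimum levels and prior counts, and leaving out each library. The interaction term was chosen after the data were seen.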

Additional observations from a re-analysis of the deposited data

Results flagged for a closer look

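The breed difference of the nuclear members changed direction between tissues. Their median log2 ratio of Korean native over Berkshire CPM was 0.92 in muscle, 0.22 in liver and -0.19 in fat. UQCR10 and UQCR11, small subunits of complex III, were the members that lay at least 1.5-fold apart in opposite directions. UQCR10 had log2 ratios of 1.44 in muscle, 0.54 in liver and -0.80 in fat, and UQCR11 had 1.48 in muscle, 0.60 in liver and -0.94 in fat. Only members were searched by this rule, and how many of all genes would meet it was not counted. Each tissue has 1 library of each breed, so the difference between liver and fat was not tested. For muscle against liver and fat the edgeR interaction term gave no member an adjusted p under 0.05, the smallest being 0.502. At an unadjusted p under 0.05 that fit, with 1 residual degree of freedom, had 14 of 62 members and 1299 of all 13810 genes. These 14 were all nuclear. The nuclear members' share of non-mitochondrial counts, which needs no TMM factor, gave log2 ratios of 0.66 in muscle, 0.27 in liver and -0.22 in fat. Adipocyte markers summed to a Korean native over Berkshire ratio of 0.397 in muscle, 0.731 in liver and 0.545 in fat, and macrophage markers to 0.389 in muscle, 0.811 in liver and 2.05 in fat, and their part in these differences was not tested.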

How the results depend on the processing

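Counts of called members moved by over 1.5 times as follows. No called log2 fold changed sign in any of 50 pairs of member and comparison, but these pairs were picked for being called, which makes a change unlikely. Of all 49 tested nuclear members, 4 were below 0 in muscle over fat with TMM factors and 19 with total counts. In liver over fat these numbers were 19 and 46. With DESeq2, 32 members were higher in muscle over fat, 14 higher in liver over fat, 2 lower in muscle over liver and 1 higher in Korean native over Berkshire. In the same order DESeq2 called 1559, 2054, 2437 and 33 of all 13810 tested genes. With RLE size factors 4 were higher in liver over fat, as were 2027 of all 13810 tested genes. With total counts 3 were higher and 4 lower in muscle over fat, 0 higher and 17 lower in liver over fat, and in Korean native over Berkshire 9 were at least 2-fold higher in muscle and 1 at least 2-fold lower in fat. Among all genes the counts in that order were 765 and 5255, 1158 and 5797, and 485 and 564. Without the breed term, which is the only block the design has (no replicate block), 2 were lower in muscle over liver and 1 higher in liver over fat. That fit called 2460 and 2003 of all genes in these directions. With a minimum of 10 CPM, 0 members and 332 of all genes were at least 2-fold higher in Korean native over Berkshire fat. Leaving out 1 library at a time gave 0 to 27 higher and 0 to 1 lower in muscle over fat, 6 to 31 higher and 0 to 1 lower in muscle over liver, and 0 to 6 higher in liver over fat. Of the 50 called folds, 25 missed the threshold with total counts, 14 without the breed term, 31 without Korean native muscle and 30 without Korean native fat. Leaving mitochondrially encoded genes out of the scaling lost 0 calls. No paired analysis was possible beyond the breed term because each group has 1 library and labels link no libraries. With all entries of the files as the denominator, the mitochondrially encoded share was 6.20% and 5.71% in Korean native and Berkshire muscle, 6.01% and 4.27% in Korean native and Berkshire liver, and 4.53% and 4.23% in Korean native and Berkshire fat. With 2 residual degrees of freedom and a median of 107 counts per tested gene, a miss does not show equal levels.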
